A study of Mus musculus with 10 samples.

Results

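The genes described here are 10 macrophage genes for costimulatory, checkpoint and adhesion molecules, out of 21887 protein-coding genes on the assembled chromosomes of the RefSeq gene table: Cd40, Cd80, Cd86, Cd83, Cd274, Pdcd1lg2, Icam1, Vcam1, Tnfsf9 and Slamf7. A peak was counted for a gene when it overlapped the gene body or the 10 kb on either side, in mm10 (GRCm38) coordinates. By this rule 350 of the 536143 peaks in 9 deposited lists belonged to the 10 genes. The peaks mark binding of p65, a subunit of NF-κB, measured by CUT&Tag, in which a transposase tethered by an antibody cuts the DNA near the protein and the fragments are sequenced. The cells were RAW264.7, a wild-type mouse line with macrophage features that was grown from an Abelson virus tumour. All were kept for 12 h with DMSO as the solvent alone (DMSO, 3 libraries), with DMSO and lipopolysaccharide (LPS, 3 libraries), or with LPS and skatole, a tryptophan product of gut bacteria (LPS+Skatole, 3 libraries). The sample labels name a p65 antibody and the study's methods an antibody to its phosphorylated form, so which form was captured is uncertain. A further sample, labelled Blank, was not analysed here, and no value was corrected by it here. Whether the deposited peaks were called against it is not known. The libraries share 1 cell line, and nothing in the labels says that replicates came from separate cultures, so tests measure only the spread between these libraries.

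A macrophage that has sensed bacterial lipopolysaccharide through Toll-like receptor 4 frees NF-κB from its inhibitors, and dimers that contain p65 enter the nucleus and bind κB sites. Among the products of activation are surface molecules that decide how a T cell responds. CD80 and CD86 engage CD28 on T cells, CD40 receives the CD40 ligand signal, and 4-1BB ligand (Tnfsf9) engages 4-1BB. PD-L1 (Cd274) and PD-L2 (Pdcd1lg2) engage the inhibitory receptor PD-1, and ICAM-1 and VCAM-1 hold integrin-bearing cells in contact. Several of these genes are textbook NF-κB targets, the Icam1 promoter with its κB site among them.

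The gene starts themselves were looked at first, because a p65 peak over a promoter can be set beside the letters it covers. The RefSeq promoter table (GRCm38.p6) matched 5 of the 10 genes, Cd80, Cd274, Pdcd1lg2, Icam1 and Slamf7. Promoters of Cd40, Cd86, Cd83, Vcam1 and Tnfsf9 were not used here. A peak overlapped the window from 250 bases before to 50 bases after the start in all 9 libraries at Icam1, in 7 at Cd80, in 7 at Cd274, in 2 at Slamf7 and in 0 at Pdcd1lg2. The 250 bases before the start are shown for the 3 genes with a peak there in most libraries, with motif matches in capitals. They lie at chr9:21015690-21015939 on the plus strand for Icam1, chr16:38458683-38458932 on the plus strand for Cd80 and chr19:29367188-29367437 on the plus strand for Cd274.
Icam1: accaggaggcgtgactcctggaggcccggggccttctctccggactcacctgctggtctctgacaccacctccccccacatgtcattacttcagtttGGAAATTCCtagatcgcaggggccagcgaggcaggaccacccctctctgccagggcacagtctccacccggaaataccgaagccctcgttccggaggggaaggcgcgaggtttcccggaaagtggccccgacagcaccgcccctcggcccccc
Cd80: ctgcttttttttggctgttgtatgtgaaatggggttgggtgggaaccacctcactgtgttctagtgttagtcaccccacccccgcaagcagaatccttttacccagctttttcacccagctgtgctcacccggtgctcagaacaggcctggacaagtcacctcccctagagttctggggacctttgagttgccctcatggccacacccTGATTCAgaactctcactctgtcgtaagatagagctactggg
Cd274: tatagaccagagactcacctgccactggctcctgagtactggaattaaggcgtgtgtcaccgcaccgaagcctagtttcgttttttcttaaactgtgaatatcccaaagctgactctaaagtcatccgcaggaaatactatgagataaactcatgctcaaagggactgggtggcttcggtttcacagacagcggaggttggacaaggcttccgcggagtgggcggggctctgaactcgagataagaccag

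The capitals mark matches, on either strand of the 300-base windows, to the κB decamer, to the κB-type motifs GGAANTTCC and GGGANTTCC, to the AP-1 motif TGANTCA, to the PU.1 motif GAGGAAGT and to a repeated interferon response motif. The κB decamer can overlap both. Icam1 held GGAAATTCC, at -153 to -145 from its start, a motif found in 0.973% of the 27025 promoters of the table. Cd80 held the AP-1 letters TGATTCA, at -42 to -36 from the start, and Slamf7 held TGACTCA at the same distance from its own start. The AP-1 motif was present in 7.93% of promoters. Pdcd1lg2 held a κB decamer, present in 6.66% of promoters, at -244 to -235 from the start, and is the gene of the 5 with no peak over the window in any library. Cd274 held none of the motifs. The 2 stretches outside the promoters printed in full are shown with 10 bases, or as many as the window holds, on each side of the match. They are the plus strand for Pdcd1lg2 on chromosome 19 and the minus strand for Slamf7 on chromosome 1.
Pdcd1lg2: tgctgtGGGGAATCCCtggtacatgt
Slamf7: aaacgtgagaTGACTCAttgtaacaag

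The lists held 37551 to 43450 peaks in DMSO, 55637 to 63498 in LPS and 78136 to 80153 in LPS+Skatole. The genome background of a library, the pileup that its caller expected by chance and here the measure of depth, was 1.09 to 1.40 in DMSO, 2.23 to 2.34 in LPS and 2.26 to 2.39 in LPS+Skatole. Because of this, the weakest summit called stood at 6.44 to 7.34 times background in DMSO and at 4.59 to 4.94 times background in the other libraries, so a peak between these limits could be listed only in the deeper libraries. All 10 macrophage markers checked, Spi1, Csf1r and Adgre1 among them, had a peak in every library. Of 5 T cell markers, 3 were listed throughout DMSO, 4 throughout LPS and 4 throughout LPS+Skatole, and of 5 B cell markers 1, 4 and 4 did. Of 5 chondrocyte markers 0, 1 and 2 did. Of 5 hepatocyte markers, 0 had a peak in all libraries of any group.

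The 10 genes had more peaks after either treatment than in DMSO, in list totals that do not overlap. DMSO libraries held 26, 25 and 28 peaks of the 10 genes, LPS libraries held 47, 39 and 40, and LPS+Skatole libraries held 55, 43 and 47. The lists as a whole lengthened as well, as given above. All 10 genes had a higher mean peak number in LPS and in LPS+Skatole than in DMSO, as did 67.0% and 83.3% of the 19505 protein-coding genes with a peak. The median gain per gene was 1.33 peaks in LPS and 2.17 in LPS+Skatole, beside 0.667 and 1 over those genes. Between LPS and LPS+Skatole the median difference was 0.333 peaks, the same as over all genes, and 3 of the 10 genes, Cd274, Icam1 and Vcam1, had the higher mean in LPS, as did 4158 of the 19505. In all, 8 of the 10 genes had a peak in all 9 libraries, against 54.2% of protein-coding genes. Both treated groups were compared with the same 3 DMSO libraries, so their differences from DMSO are not independent of each other.

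**Figure D1:**
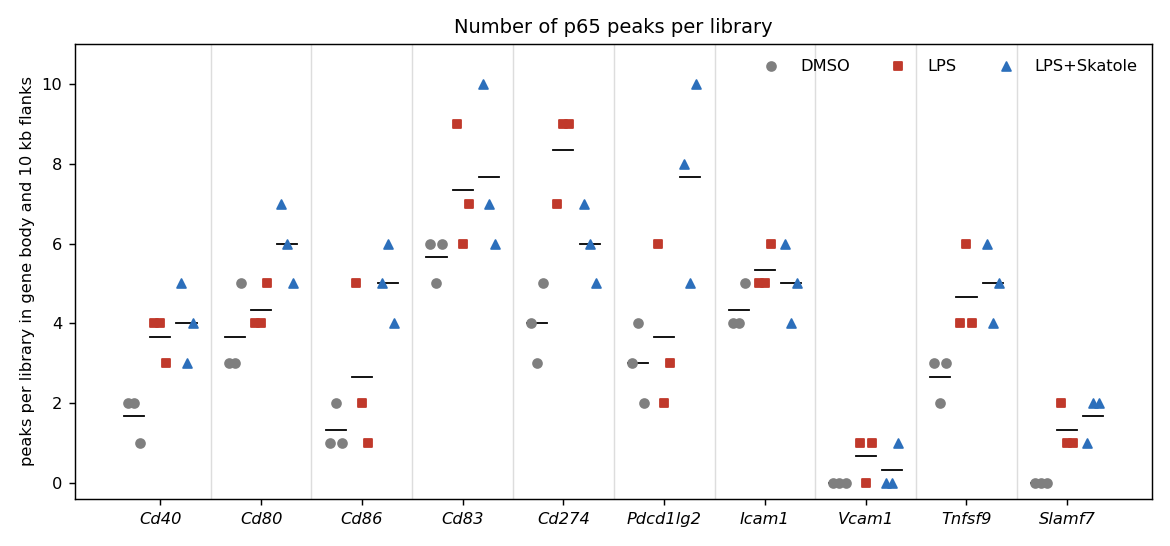
Number of peaks in the gene body and 10 kb flanks (y axis) for each of the 10 genes in each library, with 3 points per group and the group mean as a black bar. Cd274 is highest in LPS at 7 to 9 peaks, Pdcd1lg2 is highest in LPS+Skatole at 5 to 10, and Slamf7 has no peak in any DMSO library.

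Genes were called where the 3 libraries of one group all stood above the 3 of the other. With 3 against 3 the exact two-sided permutation test cannot give a p under 0.1, so each such call has p = 0.1. In LPS against DMSO, 4 of the 10 genes (Cd40, Cd274, Tnfsf9 and Slamf7) had more peaks in every library, where 13.1% of genes with a peak did, and 0 had fewer, where 0.39% did. In LPS+Skatole against DMSO, 5 genes (Cd40, Cd86, Pdcd1lg2, Tnfsf9 and Slamf7) had more, where 26.0% of genes did, and 0 had fewer, where 0.178% did. In LPS+Skatole against LPS, 0 genes had more in every library and 0 had fewer, where 9.27% and 0.789% of all genes did. A joint exact permutation test over all divisions of the 9 libraries gave Cd274 p = 0.0143 and Cd40 p = 0.0357. After Benjamini-Hochberg adjustment over 19505 genes both stood at 0.259, the smallest adjusted value of any gene, while 3213 genes had an unadjusted exact p of 0.05 or less. When the lists were shortened to equal length, the 4 and 5 calls against DMSO became 2 and 2, where 3.2% and 3.67% of all genes were called.

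Among the costimulatory genes, Cd40, the receptor for CD40 ligand, had 2, 2 and 1 peaks in DMSO, 4, 4 and 3 in LPS and 5, 3 and 4 in LPS+Skatole. DMSO lay below both other groups, which overlapped each other. The strongest peak stood at the lower-coordinate end of the gene, within 1 kb of it in all 9 libraries, in the region chr2:165054025-165057515. Its rank from the top of the list was 6898, 9544 and 8316 in DMSO, 3368, 3620 and 2162 in LPS and 3680, 8810 and 11823 in LPS+Skatole. Each LPS library placed it nearer the top than any DMSO or LPS+Skatole library did by rank, but the LPS+Skatole lists are longer, and as a percentile of the list LPS+Skatole replicate 1 (95.3) stood above LPS replicates 1 and 2 (93.9 and 93.7). Its summit stood at 25.7, 20.7 and 22.8 times background in DMSO, 30.9, 30.6 and 39.7 in LPS and 37.2, 25.2 and 20.9 in LPS+Skatole. DMSO and LPS heights did not overlap, while LPS+Skatole overlapped both. In DMSO replicate 3 the summit, its only Cd40 peak, lay at 0.993 kb from that end. In the other libraries it lay at -0.281 to 0.125 kb, so these ranks and heights do not all come from the same site. A second Cd40 region inside the gene, chr2:165061132-165063389, 6.4 kb from that end, was listed in no DMSO library, in all 3 with LPS and in 2 with LPS+Skatole. It stood at 6.1, 17.1 and 14.5 times background in LPS, the first of them under the DMSO limit of detection.

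Cd80, which encodes B7-1, a ligand of CD28 and CTLA-4, had 3, 3 and 5 peaks in DMSO, 4, 4 and 5 in LPS and 7, 6 and 5 in LPS+Skatole. The groups touched at 5 peaks, and no pair was separated. Its strongest region, chr16:38451117-38453794, lay at -4.65 kb from the lower end of the gene and within 87 bases of the end of the neighbouring gene Adprh. That region overlapped between all groups, at 43.1, 47.2 and 34.6 times background in DMSO, 26.6, 47.2 and 43.5 in LPS and 48.7, 37.6 and 42.2 in LPS+Skatole. A second region, chr16:38456401-38459033, carried a summit in 8 libraries at the lower end of the gene and another in 7 libraries with a median position at -104 bases from the RefSeq start. Its height was 22.9, 20.7 and 26.5 times background in DMSO, 24.4, 27.0 and 18.3 in LPS and 46.6, 28.8 and 28.8 in LPS+Skatole. By this strongest peak LPS+Skatole stood above the other groups in every library, without passing the test across regions given below. The peak was the one near the RefSeq start in DMSO replicate 3 (26.5) and LPS replicate 1 (24.4), and the one at the lower end elsewhere. At the start, LPS+Skatole replicates 1 and 2 stood at 35.0 and 28.8 and replicate 3 had no peak listed.

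Cd86, which encodes B7-2, the other CD28 ligand and a common marker of activated macrophages, had 1, 2 and 1 peaks in DMSO, 5, 2 and 1 in LPS and 5, 6 and 4 in LPS+Skatole. LPS spanned nearly the whole range, and LPS+Skatole lay above every DMSO library. No Cd86 peak had its summit within 1 kb of either end of the gene in any library. The recurrent sites were 2 regions inside the gene, chr16:36626575-36627512 and chr16:36631618-36633679, with a peak in 7 and 6 libraries. The first stood at 11.9 and 15 times background in the 2 DMSO libraries that listed it, at 14.4 and 12.4 in 2 LPS libraries and at 9.83, 19.0 and 27.1 in LPS+Skatole. The second was listed in 1 library with DMSO, 2 with LPS and all 3 with LPS+Skatole.

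Cd83, a surface protein of activated antigen-presenting cells, carried the most peaks in DMSO, with 6, 5 and 6, against 9, 6 and 7 in LPS and 10, 7 and 6 in LPS+Skatole. The groups met at 6 peaks. Its strongest peak was nearer the top in each LPS library (ranks 1223, 1564 and 1869) than in any DMSO library (4330, 6288 and 4596), and LPS+Skatole ranged from 1022 to 4361. With a 3 kb window this call is lost and the median rank difference turns to -997, positive being nearer the top in LPS. In DMSO replicates 1 and 3 that peak lay in chr13:43783818-43791580, over the lower end of the gene, and in DMSO replicate 2 and the treated libraries it lay in chr13:43773575-43779627, at -9.68 kb near the edge of the window. The latter region ranked 6153, 6288 and 5199 in DMSO. It stood at 27.5, 32.2 and 33.9 times background in DMSO, 49.2, 46.7 and 46.1 in LPS and 38.5, 50 and 63.1 in LPS+Skatole, so that DMSO lay below every other library. The region over the lower end of the gene was listed in every library and overlapped between all groups. At the other end of the gene, chr13:43802240-43803567 was listed in no DMSO library and in all treated ones, at 10.5, 18.4 and 5.12 times background in LPS and at 12.8, 9.29 and 13.8 in LPS+Skatole.

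Tnfsf9, which encodes 4-1BB ligand, a costimulatory ligand of the tumour necrosis factor family, had 3, 2 and 3 peaks in DMSO, 4, 6 and 4 in LPS and 6, 4 and 5 in LPS+Skatole. DMSO lay below both other groups. The region that covers the lower end of this short gene, chr17:57105163-57106181, was listed in 8 libraries. Its summit stood at 33.0, 25.7 and 38.3 times background in DMSO and at 19.2, 16.6 and 15.8 in LPS, and in LPS+Skatole it was not listed in replicate 1 and stood at 28.8 and 17.1 in the others. DMSO was above LPS in every library. Without LPS+Skatole replicate 1 the region could be tested, and LPS was lower than DMSO by a log2 difference of -0.70 with a limma adjusted p of 0.289. It also overlaps the lncRNA Gm11110. On the other side of it, chr17:57096171-57097188 was listed in 8 libraries at 7.08 to 21.7 times background, with overlapping groups. Beyond the upper end, chr17:57108201-57109160 was listed in no DMSO library, in all 3 with LPS and in 2 with LPS+Skatole, at 17.0, 14.8 and 15.4 times background in LPS and at 49.6 and 24.6 in LPS+Skatole. A region at chr17:57112408-57113770, in all 9 libraries, overlapped between the groups.

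Slamf7, a self-binding receptor of the SLAM family on macrophages and lymphocytes, had 0 peaks in each DMSO library, 2, 1 and 1 in LPS and 1, 2 and 2 in LPS+Skatole. It was the 1 gene of the 10 that was absent from a whole group and present in the whole of another, in LPS against DMSO, where 1.14% of genes with a peak were gained, and in LPS+Skatole against DMSO, where 2.52% were. The peaks that recurred lay in chr1:171658189-171659087, upstream of the gene at -9692 bases from the RefSeq start on the minus strand, with summits within 216 bases of each other in 6 libraries. They stood at 8.28, 19.8 and 6.4 times background in LPS and at 22.7, 21.2 and 20.9 in LPS+Skatole. The lowest LPS value is under the DMSO limit of detection and all LPS+Skatole values are above it. With a 3 kb flank in place of 10 kb the gene is no longer called, since the region lies outside it. The gain in LPS is also lost with lists of equal length or with summits of at least 8 times background, while the gain in LPS+Skatole is kept under both.

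**Figure D2:**
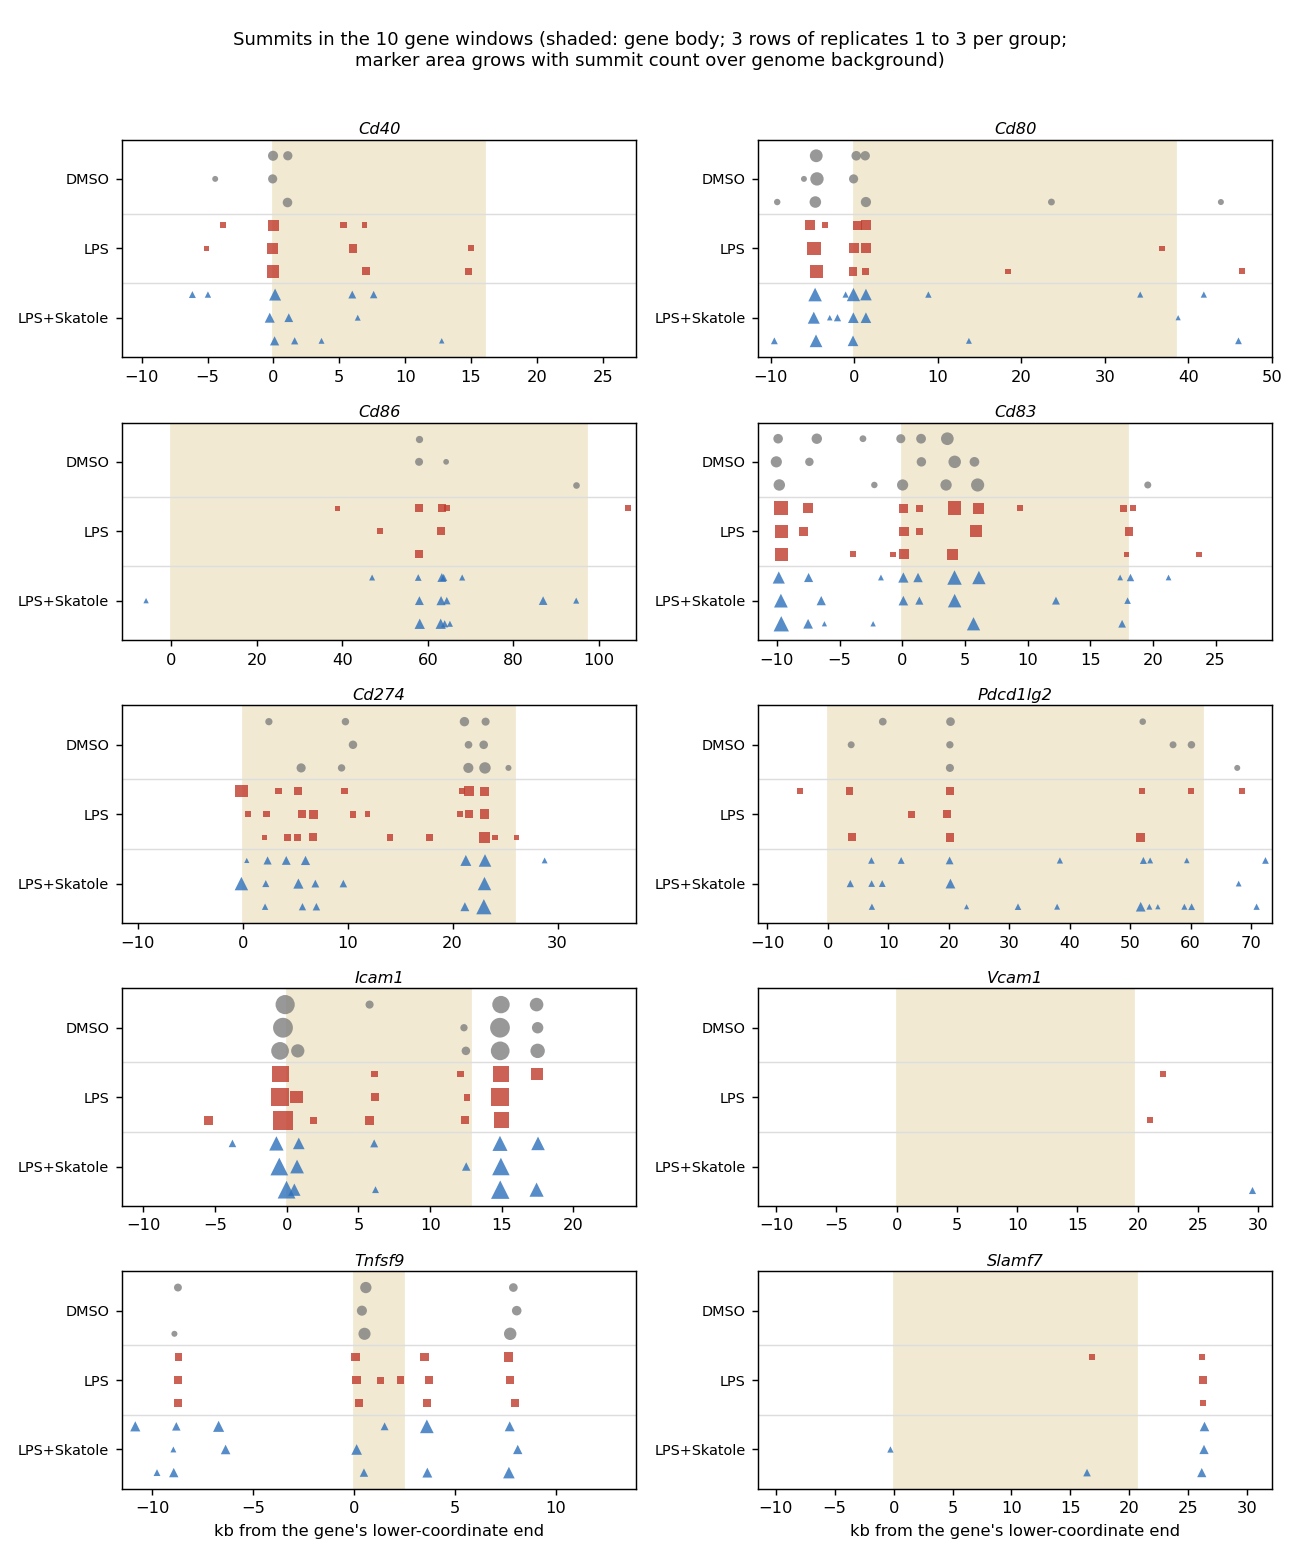
Summits of every peak in the 10 gene windows, as distance in kb from the gene's lower-coordinate end (x axis) in the 9 libraries (3 rows per group), with marker area growing with the summit count over genome background and the gene body shaded. Icam1 has 2 tall sites shared by all libraries, Slamf7 a site at 26.29 kb in the treated libraries, and Vcam1 no summit inside its body.

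The 2 checkpoint genes lie side by side on chromosome 19. Cd274, which encodes PD-L1, had 4, 3 and 5 peaks in DMSO, 7, 9 and 9 in LPS and 7, 6 and 5 in LPS+Skatole. Every LPS library held more than every DMSO library, and the LPS+Skatole values lay between, touching both. Within the gene body alone, an alternative window, each LPS+Skatole library held fewer overlapping Cd274 peaks than each LPS library. Counted by summits inside the body, LPS held 6, 9 and 8 and LPS+Skatole 6, 5 and 5, so the groups touched. No share of all genes is given for that window. The merged region chr19:29363896-29369415 spans the start and also covers the end of Plgrkt. Its strongest summit stood in DMSO replicates 1 and 3 at 11.9 and 20.6 times background, in LPS at 15.3, 18.9 and 15.8 and in LPS+Skatole at 20.9, 26.1 and 12.9. These summits lay at different places in the region. In DMSO replicate 1 the nearest was at -2835 bases from the start, so that replicate 3 was the 1 DMSO library with a peak over the 300-base promoter window. Summits fell inside that window in 2 LPS libraries and 1 LPS+Skatole library. A region 4409 bases past the start, chr19:29371501-29372834, was listed in 3 libraries with DMSO, 2 with LPS and 1 with LPS+Skatole.

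By rank the strongest Cd274 region in every library except DMSO replicate 2 lay inside the gene, 17679 bases past the start, at chr19:29382344-29386235. In DMSO replicate 2 it ranked 14885, behind chr19:29371501-29372834 at 12938. By height over genome background, a peak at the lower gene end was taller in LPS replicate 1 (39.2 times background) and LPS+Skatole replicate 2 (47.8). Its fold over local background was only 2.42 and 2.84 in these libraries, at ranks 28288 and 27381. The inner region stood at 22, 17.9 and 33.9 times background in DMSO, 22.2, 23.4 and 30.3 in LPS and 41.5, 46.9 and 61.8 in LPS+Skatole. DMSO and LPS overlapped, and LPS+Skatole stood above both in every library. The rank of the gene's strongest peak was 8944, 12938 and 5382 in DMSO, 6732, 8172 and 5334 in LPS and 3754, 2807 and 1175 in LPS+Skatole, so the LPS+Skatole libraries were nearest the top in both comparisons. Peak number and peak strength thus ordered the treated groups differently, with the most peaks in LPS and the strongest peak in LPS+Skatole. The region overlaps the end of the lncRNA Gm36043 and has 2 summits. The one common to all 9 libraries kept within 182 bases in all of them, at chr19:29385070-29385252.

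Pdcd1lg2, which encodes PD-L2, had 3, 4 and 2 peaks in DMSO, 6, 2 and 3 in LPS and 8, 5 and 10 in LPS+Skatole. LPS overlapped both other groups, and LPS+Skatole lay above DMSO in every library. Of its 20 regions, 10 were listed in 1 library only, a share of 50%, beside 71.3% of the regions of the genome. The most regular one, chr19:29430406-29432217, 20.2 kb into the gene, was listed in 8 libraries at 12.2 to 23.9 times background and overlapped between groups. A region 7.27 kb into the gene, chr19:29417990-29418674, was listed in all 3 libraries with LPS+Skatole and in no other, at 9.4, 9.73 and 8.35 times background with summits within 82 bases. Another, chr19:29462192-29463236, was listed in 5 libraries, at 6.54 to 23.4 times background.

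Of the adhesion genes, Icam1, whose product binds the leukocyte integrins LFA-1 and Mac-1, had the best-ranked peak of the 10 genes in every library except LPS+Skatole replicate 1, where Cd80 came first at rank 1751. It had 4, 4 and 5 peaks in DMSO, 5, 5 and 6 in LPS and 6, 4 and 5 in LPS+Skatole, with no pair separated. The strongest peak ranked 947, 399 and 589 in DMSO, 791, 345 and 1109 in LPS and 2127, 757 and 489 in LPS+Skatole. Overlap between all groups is clear in these ranks. That peak lay 2.02 kb beyond the upper end of the gene, 236 bases from the end of Icam4, in the region chr9:21029395-21033756, with summits within 106 bases in the 9 libraries. Its height was 81.7, 106.0 and 94.9 times background in DMSO, 68.0, 86.7 and 66.1 in LPS and 60.7, 82.7 and 91.9 in LPS+Skatole. The same region held another site, about 17.5 kb from the lower end of the gene. That site stood at 48.6, 33.6 and 55.2 times background in DMSO and 38.8 in LPS replicate 1. In LPS+Skatole replicates 1 and 3 it stood at 48.7 and 53.4, and the remaining libraries did not list it.

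The Icam1 promoter region, chr9:21014004-21017905, was listed in all 9 libraries and held 1 recurrent site before the start and 1 about 0.72 kb after it. A further peak, in LPS replicate 3 alone, lay 1.83 kb after the start at 11.1 times background. The upstream site, with summits at chr9:21015214-21015921, stood at 100, 107.0 and 84.6 times background in DMSO, 75.8, 84.5 and 101.0 in LPS and 54.7, 84.9 and 85.2 in LPS+Skatole. The groups overlapped. Its summit fell inside the 300-base promoter window in DMSO replicate 1 and LPS+Skatole replicate 3, and upstream of the window in the other libraries. By list order this site was weaker, at ranks 3633 to 7148 in 8 libraries and 48747 in LPS+Skatole replicate 3, and its fold over local background was 3.69 to 5.02 in 7 libraries, 12.2 in LPS+Skatole replicate 1 and 1.65 in replicate 3. The site about 0.72 kb after the start was listed separately in 1 DMSO, 1 LPS and all 3 LPS+Skatole libraries, at 46.4 in DMSO, 40.9 in LPS and 35.0, 50 and 39.7 in LPS+Skatole. Within the gene, chr9:21021429-21022727 and chr9:21028011-21028825 were listed in 6 libraries each, 3 of them the LPS libraries, at 10.0 to 18.8 times background. Peaks at both main Icam1 sites were thus listed in all libraries without LPS, and their DMSO and LPS heights overlapped.

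Vcam1, the ligand of the integrin VLA-4, was at the other end of the range. It had 0 peaks in all DMSO libraries, 1, 0 and 1 in LPS and 0, 0 and 1 in LPS+Skatole. These 3 peaks fell in 3 different regions, all outside the gene body, at ranks 45323, 44359 and 28559 in their lists. No call was made for Vcam1 in any comparison.

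**Figure D3:**
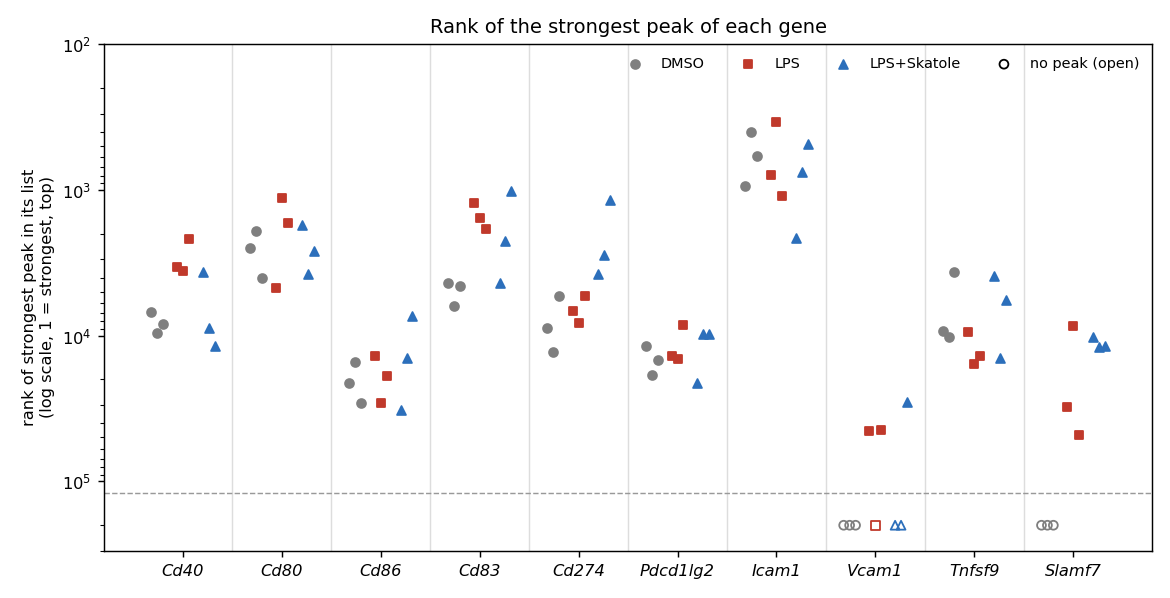
Rank of the strongest peak of each gene in its library's list (y axis, log scale, rank 1 at the top), with 3 points per group and open markers for libraries with no peak. Icam1 ranks at 345 to 2127, nearest the top in all libraries but LPS+Skatole replicate 1, Cd40 and Cd83 are nearer the top in LPS than in DMSO, and Cd274 is nearest the top in LPS+Skatole.

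Over the 10 genes the rank of the strongest peak was nearer the top in every LPS library than in every DMSO library for 3 genes (Cd40, Cd83 and Slamf7), where 6.82% of genes were, and farther for 0, where 7.44% were. In these counts a library without a peak stands behind any listed peak, so Slamf7, with no rank in DMSO, only repeats its presence call. Between LPS+Skatole and DMSO it was nearer in LPS+Skatole for 2 (Cd274 and Slamf7), where 8.39% were, and farther for 0, where 10.0% were. Among genes ranked in every library compared, an alternative chosen after the data were seen, Cd40 and Cd83 were nearer in LPS than in DMSO, where 7.02% of all genes were, and Cd274 in LPS+Skatole, where 7.24% were. In LPS+Skatole against LPS it was nearer for Cd274, where 5.3% were, and farther for Cd40, where 6.77% were. When percentiles within each list were used, Cd40 was no longer farther from the top in LPS+Skatole, and the 2 genes nearer the top in LPS+Skatole than in DMSO became 5, where 27.8% of all genes were.

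Merging overlapping peaks of the 9 lists gave 100 regions at the 10 genes, of which 9 were listed in all libraries and 61 in 1 library, as against 5.88% and 71.3% of the 235070 regions of the genome. Of the 100, 54 had their summit inside a gene body. In LPS against DMSO, 4 of the 64 member regions with a peak in either group went from 0 to 3 libraries, at Cd40, Cd83, Tnfsf9 and Slamf7, where 1.65% of such regions in the genome did. From DMSO to LPS+Skatole, 3 of 75 did, at Cd83, Pdcd1lg2 and Slamf7, where 2.36% did. From LPS to LPS+Skatole the Pdcd1lg2 region described above did, 1 of 94, where 0.583% did. The part of the depth difference in these gains was not tested.

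**Figure D4:**
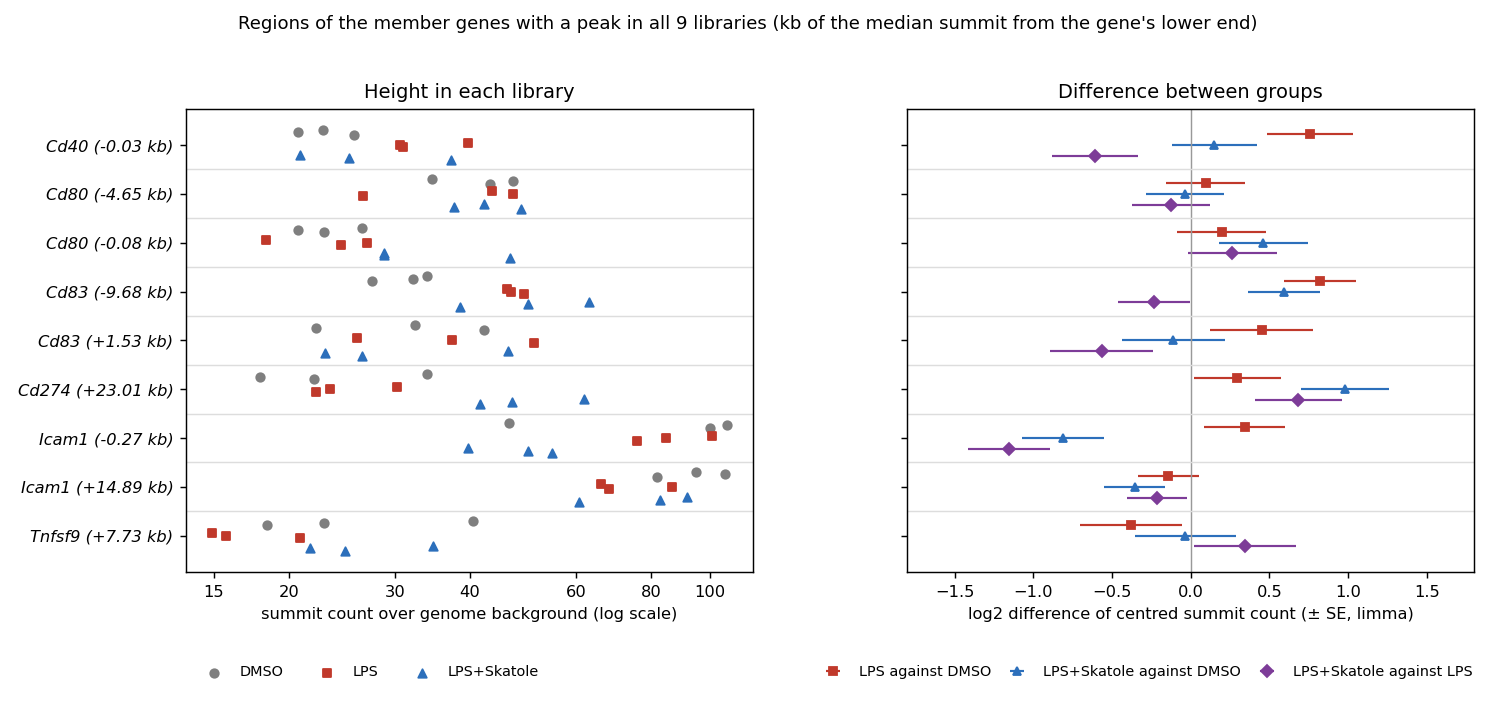
The 9 regions of the 10 genes listed in every library, named by gene and distance of the median summit from the lower gene end, with the summit count over genome background in each library (left, log scale) and the limma log2 difference of centred summit counts with its SE (right). The Cd274 region stands highest in LPS+Skatole, at 41.5 to 61.8 times background, and the Cd83 region at -9.68 kb lowest in DMSO.

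Summit heights were compared with limma in the 13824 regions of the genome listed in every library, of which 9 belonged to these genes. Scaling by genome background in place of centring moved the median over all regions from -0.02 to -0.24 in LPS against DMSO and from -0.05 to 0.24 in LPS+Skatole against LPS (log2), and changed no call among the 9. The Cd274 region 17679 bases past the start was higher in LPS+Skatole than in DMSO by 1.97-fold (log2 difference 0.98 ± 0.28 SE, n = 3 libraries per group, limma adjusted p = 0.0469). It was the 1 member region called of 9 in that comparison, where 2.84% of all regions were higher and 2.59% lower. The value is close to the threshold, and the adjusted p rose to 0.0577 to 0.16 when any library other than DMSO replicate 3 was left out. Built from summits alone, an alternative chosen after the data were seen, the site was 2.25-fold higher (limma adjusted p = 0.00486), while on the authors' fold the region was 1.79-fold higher and lost the call (limma adjusted p = 0.14). Against LPS the same region was 1.61-fold higher, with a limma adjusted p of 0.399.

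In LPS against DMSO, 0 of the 9 regions passed, where 0.709% of all regions were higher and 0.318% lower. By limma, 2 of the 9, at Cd40 and Cd83, had an unadjusted p under 0.05, as did 1818 of the 13824. The differences closest to the threshold were those of the Cd83 region at -9.68 kb, at 1.77-fold (log2 0.82 ± 0.23 SE, limma adjusted p = 0.0941), and of the Cd40 region at the gene end, at 1.69-fold (log2 0.76 ± 0.27 SE, limma adjusted p = 0.214). The Cd40 value of DMSO replicate 3 came from the summit at 0.993 kb, apart from those of the other libraries. With sites built from summits the Cd83 site was 1.87-fold higher at a limma adjusted p of 0.0253. In LPS+Skatole against LPS, 0 of the 9 passed as well, where 0.0362% of all regions were higher and 0.0723% lower, and 3 had an unadjusted limma p under 0.05, at Cd274, Cd40 and Icam1, as did 1424 of the 13824. The Icam1 promoter region had the smallest p, at 0.449-fold (log2 -1.15 ± 0.26 SE, limma adjusted p = 0.117). Without DMSO replicate 3 it passed, at an adjusted limma p of 0.0176, and the same region was then also lower than in DMSO, at a log2 difference of -1.21 with a limma adjusted p of 0.00459, against -0.81 and 0.0724 with all libraries. These values rest on which of its 2 recurrent sites was the stronger in a library. On the upstream site alone it was 0.707-fold (limma adjusted p = 0.25), and on the authors' fold the region differed the other way, at a log2 difference of 1.01 with a limma adjusted p of 0.557.

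Other genes of the same kind were counted for comparison, 40 in all, among them further B7 and TNF-family ligands, SLAM receptors and integrins. Some of them share peaks, so they are not all separate observations. The windows of Icam4 and Icam5 hold the strongest Icam1 peak, and Itgam and Itgax had the same best ranks in LPS+Skatole. Of these, 24 had a peak in all 9 libraries (60%, beside 54.2% of all genes). In LPS against DMSO 9 of the 40 had more peaks in every library and 0 fewer, in LPS+Skatole against DMSO 16 and 0, and in LPS+Skatole against LPS 7 and 0. Higher in both comparisons with DMSO were Alcam, Cd44, Vsir, Selplg and Itgal. Alcam, an adhesion molecule that binds CD6, had 7, 9 and 7 peaks in DMSO, 13, 18 and 16 in LPS and 16, 19 and 24 in LPS+Skatole. Cd44, the hyaluronan receptor, had 1, 0 and 3 in DMSO, 9, 7 and 6 in LPS and 5, 13 and 9 in LPS+Skatole. Vsir, which encodes the checkpoint protein VISTA, had 7, 6 and 9, then 11, 11 and 15, then 15, 15 and 10. Slamf8, of the family of Slamf7, was listed in no library with DMSO, in 2 with LPS and in 3 with LPS+Skatole. The shares of the 40 with more peaks were 22.5%, 40% and 17.5%, beside 13.1%, 26.0% and 9.27% of all genes.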

How the data were processed

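CUT&Tag peak lists of 9 RAW264.7 libraries (3 DMSO, 3 LPS, 3 LPS+Skatole) were used. The authors called peaks per library and deposited each list as narrowPeak, with a score, a fold (a ratio of summit to local background), a −log10 p, a −log10 q and other columns of positions. All deposited −log10 p values exceed 5, and the score is the whole part of 10 times it. The submitters' processing notes name mm10, fastp 0.20.1 and HISAT2 2.1.0. The peak caller and the handling of duplicates are not given in the sources used here.

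Summit counts were recovered from the fold and the −log10 p and were whole within 0.1 for at least 99.9949% of peaks in each library. Depth per library is known only through the genome background. Peaks off the assembled chromosomes were left out. Genes came from RefSeq (GRCm38.p6). Peak number, presence and the rank of the strongest peak by −log10 p were compared as non-overlapping groups, with exact permutation tests. Log2 summit counts of regions listed in every library, centred on each library's median, were tested with limma (lmFit, eBayes with trend) and Benjamini-Hochberg adjustment over all regions. A region was represented by its strongest peak, and only peaks overlapping a gene's window were counted for it. The limma tests took whole merged regions, also where these ran past the window. The tests were tried on simulated data. Software was Python 3.11.15, R 4.3.3 and limma 3.58.1.

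All 10 genes are named. Regions are described singly where listed in at least 5 of 9 libraries or in 3 against 0 of a pair of groups. Related genes are named where presence changed or where their number of peaks was higher than in DMSO in both treated groups. The members and lists were chosen with earlier results of these data known. Alternatives covered the window, list length, a −log10 q of at least 5, the ordering, the scaling, pairing by replicate number and leaving out each library.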

Additional observations from a re-analysis of the deposited data

How the results depend on the processing

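Of 306 recomputed counts of called genes or regions, 57 moved by over 1.5 times from the value given and the others did not. For alternatives below without a share of all genes under the same setting, the counts show only how calls moved. They do not show whether these genes differed from other genes. For peak number, the 4 genes higher in LPS than in DMSO became 2 with lists of equal length and 2 with summits of at least 8 times background, a floor chosen after the data were seen. The 5 higher in LPS+Skatole than in DMSO became 2 with a 3 kb window, 2 in the gene body alone, 2 with equal lists and 3 with the floor. For LPS+Skatole against LPS, the 0 higher became 1 (Cd86) at a −log10 q of at least 5 and 3 with the floor. The 0 lower became 2 (Cd274 and Icam1) in the gene body, 1 with equal lists and 1 at that q. Slamf7 was gained in 0 comparisons with a 3 kb window or the gene body, and in LPS also 0 with equal lists or the floor. For rank, with a gene without a peak counted behind any listed peak, the 3 genes nearer the top in LPS than in DMSO became 1 with a 3 kb window, and 1 (Tnfsf9) was then farther. Among genes ranked in every library compared they were 2. The 2 nearer in LPS+Skatole than in DMSO became 1 (Cd274) among such genes and 5 by percentile, and ordered by fold 1 (Icam1) was farther. Against LPS, 2 were nearer with a 3 kb window and 0 farther by percentile. For summit height, sites built from summits, also chosen after the data were seen, gave 1 of 5 member sites higher in LPS and 2 of 5 in LPS+Skatole than in DMSO, beside 155 and 403 of 9074 sites in all. The authors' fold gave 0 higher in LPS+Skatole than in DMSO. Absent peaks set to the lowest summit called gave 3 of 24 member regions higher than in DMSO and 1 of 24 (Icam1) lower than in LPS, beside 2676 and 353 of 30565 regions. Of the 3, the Tnfsf9 region at chr17:57094108-57095295 had a peak inside the gene's window in 1 library only. It was tested with peaks of the merged region that lie outside the window. The causes were not tested. With a 3 kb window the median rank difference, positive when nearer the top, turned to -997 for Cd83 and -17158 for Slamf7 in LPS. It turned to -11911 for Slamf7 in LPS+Skatole. Unlike in the counts, a gene without a peak was here given the rank after the end of its list. For Slamf7 the LPS value thus follows list length. The LPS+Skatole value sets a listed peak, at rank 52863 in LPS+Skatole replicate 2, against the end of a DMSO list.

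Groups of 2 against 3 separate more easily, so the counts without 1 library are given with the share of all genes or regions called in the same way. Leaving out each library in turn gave 4 to 6 genes with more peaks in LPS than in DMSO (16.6% to 21.1% of all genes), 5 to 8 in LPS+Skatole than in DMSO (30% to 34.1%), and 0 to 2 higher (12.8% to 15.5%) and 0 to 1 lower (1.64% to 2.33%) in LPS+Skatole than in LPS. It gave 1 to 2 genes gained in LPS (1.75% to 2.31%). For rank it gave 3 to 4 nearer (10.2% to 11.2%) and 0 to 1 farther (11.6% to 12.8%) in LPS, 2 to 5 nearer in LPS+Skatole (11.9% to 13.1%), and 1 to 2 nearer (8.77% to 10.3%) and 1 to 2 farther (at most 11.9%) in LPS+Skatole against LPS. For summit height it gave 0 to 1 regions higher (1.32% to 2.28% of all regions) and 0 to 1 lower (1.24% to 2.16%) in LPS+Skatole than in DMSO, and 0 to 1 lower than in LPS (0.0286% to 0.114%).

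Replicate numbers are shared between groups, but same-numbered libraries did not deviate together (correlations -0.012 to 0.011 over regions), so the numbers were not taken as pairs. With a replicate block, Pdcd1lg2 was the 1 gene with a higher peak number under LPS+Skatole than under LPS, 1 (Tnfsf9) ranked farther from the top in LPS than in DMSO and 2 nearer in LPS+Skatole than in LPS. No share of all genes under the block is given. These counts therefore do not show whether the genes differed from others. The Cd274 height in LPS+Skatole against DMSO kept its call under the replicate block, at a limma adjusted p of 0.0378.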
